A study of Mus musculus with 35 samples.

Results

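The young neurons of the embryonic mouse brain described here were 82 sorted single cells, out of 123 neural gate cells and 686 cells of all 4 sort gates with more than 1500 transcripts. They came from wild-type E14.5 brains dissociated into single cells, sorted into plates by FACS and sequenced with mCEL-Seq2, a method that tags each RNA molecule with a short random identifier and reads its 3′ end. The neural gate was defined by absence only: its cells carried none of PECAM1, CD102, PDGFRβ, CD45 and CD41 on their surface. A neural gate cell was taken as a young neuron when its summed transcripts of Tubb3, Stmn2, Dcx, Gap43 and Mapt exceeded those of Sox2, Fabp7, Hes5, Slc1a3 and Ttyh1. The other 41 neural gate cells are called progenitor wells, and they include 2 wells with no transcript of either set and 4 wells in all with equal sums. The 82 young neurons were spread over plates 1, 2 and 3 as 34, 39 and 9 cells, and each plate's neural gate cells formed 1 library. The plates served as replicates (n = 3). The cells came from 3 brains, but no source used here ties a plate to a brain, so p-values measure the spread between plates. Another 3 plates held E14.5 brain cells labelled Mof Knockout, with no sort gate given, and 12 bulk libraries held neural, mural, endothelial and microglial populations sorted from 3 wild-type brains. How the deletion was driven is not given in the sources used here.

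In the embryonic brain, radial glia and other dividing progenitors line the ventricles. Cells that leave the cell cycle switch on cytoskeletal and adhesion genes for migration and axon growth, such as Dcx and Tubb3, before they form synapses. Excitatory neurons of the cortex arise locally and use NEUROD and TBR1 transcription factors. Inhibitory neurons arise in the ganglionic eminences of the ventral forebrain, under DLX factors, or in the diencephalon, midbrain and hindbrain, where TAL and GATA factors act, and they make GABA with the enzymes encoded by Gad1 and Gad2.

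A young neuron held a median of 7660 transcripts (range 1575 to 22116), against 8062 in the progenitor wells. The young neurons of plate 3 were shallower, with a median of 2815 transcripts against 10899 in its 5 progenitor wells, and the part of this gap in depth in the results was not tested. On plate 3 only 14 of 69 neural gate cells passed 1500, against 56 of 64 on plate 1 and 53 of 64 on plate 2. Barcodes that belonged to no well in the neural libraries held a median of 98.0 transcripts, or 1.27% of the median of neural gate wells over 1500 transcripts. Markers of the sorted-out cell types differed in how often they were found in the young neurons. None of the 82 cells held a transcript of Cdh5, C1qa, Tyrobp or Hba-a1, which allows a share of up to 3.66% of cells with a transcript. The pericyte gene Rgs5 was found in 24.4% of young neurons and 26.8% of progenitor wells, and in 13.9% of the barcodes of no well, against 95.7% of mural gate cells. The summed level of 9 mural markers in young neurons ran from 41.1 to 90.9 CPM over the plates, that of 7 endothelial markers from 44.3 to 48.3 and that of 8 microglia markers from 17.5 to 169. The corresponding ranges in progenitor wells were 20.02 to 127, 30.2 to 40.0 and 0 to 160. Counted over both classes, transcripts were found for 7 of 9 mural, 6 of 7 endothelial and 7 of 8 microglia genes. The ranges of the classes overlapped for the mural and microglial lists and not for the endothelial one, and the part of these transcripts in the results was not tested. Throughout, a level is given in CPM, the transcripts of a gene summed over the cells of a class on 1 plate and scaled to the same total for every sum.

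The 5 neuron markers chose the cells, so their levels are a description without a test. Dcx, which encodes a microtubule-binding protein of migrating neurons, was found in 74 of the 82 young neurons, and its level was 977, 868 and 580 CPM on plates 1, 2 and 3. Tubb3, the neuronal β-tubulin, was found in 77 cells, at 1560, 890 and 1016 CPM. Stmn2, a growth cone regulator of microtubules, was found in 67 cells, at 1444, 1098 and 871 CPM. Each of these 3 genes was highest on plate 1. Gap43, a growth cone membrane protein, was found in 57 cells and Mapt, which encodes tau, in 58 cells. In the endothelial gate, whose cells should lack them and held a median of 6408 transcripts, Dcx was found in 4.9% of cells, Tubb3 in 5.3% and Stmn2 in 8.9%. The median summed count of the 5 neuron markers was 27 transcripts per young neuron, with a range of 1.0 to 204. Of the 82 cells, 39 held no transcript of the 5 progenitor markers and 69 had a neuron sum over 10 times the progenitor sum, while 10 cells had a neuron sum of at most 5. The members closest to the boundary had sums of 1.0 against 0 and of 5.0 against 4.0, and the closest cells outside it had equal sums, such as 4.0 against 4.0 and 1.0 against 1.0.

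**Figure D1:**
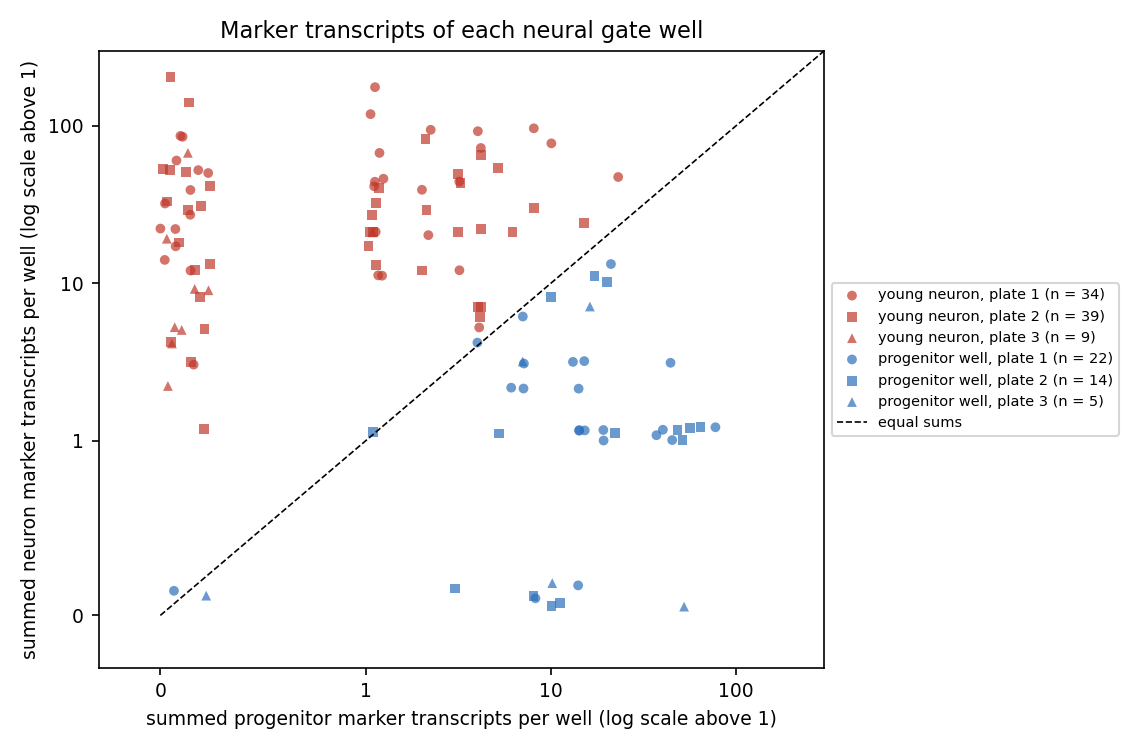
Summed transcripts of the 5 neuron markers (y axis) against those of the 5 progenitor markers (x axis) in each of the 123 neural gate wells; both axes are logarithmic above 1, and points are shifted by up to 0.25 transcripts so that equal wells do not hide each other. The 82 young neurons (red) lie above the dashed line of equal sums by construction, and 39 of them sit at a progenitor sum of 0.

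Sox2, a transcription factor of neural progenitors, was the progenitor marker most often found in young neurons. It was detected in 32 of the 82 cells, against 15 for Fabp7, 8 for Ttyh1, 4 for Slc1a3 and 2 for Hes5. Its level in young neurons was 210, 174 and 24.2 CPM on plates 1, 2 and 3, and in progenitor wells it was 810, 846 and 501. The Sox2 transcripts of young neurons were unevenly spread: they were found in 12 of 19 cells with a Gad gene alone and in 8 of 41 cells with Neurod2, Neurod6 or Tbr1 alone, at up to 22.1 transcripts in a cell of the first class and 2.0 in the second.

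Young neurons and progenitor wells differed widely in genes other than the neuron and progenitor markers that split them. Since the classes were made from transcripts of the same cells, these counts describe the split and support nothing further. Of 2382 genes tested in sums per class and plate, 229 (9.61%) were higher and 174 (7.3%) were lower in young neurons at an adjusted p under 0.05 (edgeR). Without plate 1 the test gave 45 higher and 39 lower genes, without plate 2 it gave 62 and 57, and without plate 3 it gave 541 and 501. A gene entered the test only if enough of the sums held it, so low genes entered mostly through the class in which they were high. The median log2 fold change over all tested genes was -0.03.

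Actl6b encodes a neuronal subunit of the BAF chromatin remodelling complex (BAF53B). Its level was 217, 108 and 193 CPM in the young neurons of plates 1, 2 and 3, and no progenitor well held a transcript. Measured against a floor of 3 transcripts over all progenitor wells, it was at least 17.3-fold higher, and it was found in 48 of the 82 young neurons. Actl6b was the only one of the 4 listed neuronal BAF subunits with enough transcripts to be tested. Of the 4 listed progenitor BAF subunits, 1 was tested and did not pass. The gene lies at chr5:137553517-137569582 in GRCm38.

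Cytoskeletal genes of the axon and growth cone rose together. Of 27 listed genes, 24 were tested, 19 were higher, none was lower, and their median log2 fold change was 1.71. Ina, which encodes the neuronal intermediate filament α-internexin, was at 587, 608 and 628 CPM in young neurons and at 6.04, 9.40 and 0 in progenitor wells, a log2 fold change of 6.39 ± 0.45 (SE). Crmp1, a semaphorin signalling protein, was at 706, 589 and 532 against 115, 75.2 and 80.1 CPM, and Tubb2a, a β-tubulin, at 3214, 3085 and 2899 against 833, 1052 and 641. For all 3 genes the 2 classes did not overlap on any plate. Mllt11 and Tagln3 also rose, by 3.88 ± 0.41 and 2.62 ± 0.30 on the log2 scale.

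Adhesion and axon guidance genes were the next group. Of 28 listed, 14 were tested and 10 were higher, with none lower and a median log2 fold change of 2.50. L1cam, an adhesion molecule of growing axons, was at 182, 228 and 96.6 CPM in young neurons and at 6.04, 0 and 0 in progenitor wells. Cntn2, a contactin of early axons, was at 378, 509 and 459 against 6.04, 37.6 and 0 CPM, a log2 fold change of 4.71 ± 0.48. Ank3, the scaffold of the axon initial segment, rose by 3.92 ± 0.41, and Chl1 and Nrxn3 were among the other members that rose. Each of these genes was higher in young neurons on all 3 plates.

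Genes of neuronal RNA processing, secretion and excitability were partly covered. Of 14 listed neuronal RNA-binding proteins, 10 were tested and 4 rose: Rbfox1 by 5.75 ± 0.77, Celf4 by 3.68 ± 0.35, Elavl3 by 1.94 ± 0.30 and Rbfox2 by 0.93 ± 0.30 on the log2 scale. Only 6 of 19 synaptic vesicle and secretion genes were tested, of which 4 rose, among them Rtn1 and the synaptotagmin Syt4. Of 21 receptor and channel genes, 4 were tested and 3 rose: Grin2b, an NMDA receptor subunit, by 4.85 ± 0.82, the sodium channel gene Scn3a by 4.40 ± 0.57, and Gria2, an AMPA receptor subunit, by 2.42 ± 0.32. Most genes of the synaptic and channel lists had too few transcripts to be tested. Among them, Snap25, Syt1 and Syn1 were found in 34, 29 and 24 of the 82 young neurons.

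Transcription factors were tested in several lists. Of 18 SoxC and early neuronal factors, 10 were tested and Sox11, Bcl11a and Bcl11b rose, by 1.25 ± 0.28, 2.10 ± 0.28 and 2.0 ± 0.29. Sox11 was found in every cell of both classes, at 3654, 5021 and 4808 CPM in young neurons and 1715, 1766 and 1522 in progenitor wells. Among 45 genes of the GABAergic lineage, 10 were tested, Zfhx3 rose by 2.72 ± 0.40, and 3 fell, among them Dlx1 and Dlx2. The 1 of 10 that rose is near the 9.61% of all tested genes. Beside the 3 of 10 that fell, 7.3% of all tested genes were lower. Dlx1 was at 531, 404 and 300 CPM in progenitor wells and at 133, 177 and 24.2 in young neurons, although it was found in 13 of 41 and 21 of 82 cells. The difference in Dlx1 was therefore mostly in transcripts per positive cell and less in the share of positive cells.

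The tested genes of the cell cycle and radial glia lists were all lower. Of 26 cell cycle genes, 16 were tested and all 16 were lower, with a median log2 fold change of -3.99. Top2a, a topoisomerase of dividing cells, was at 10.5, 9.49 and 0 CPM in young neurons and at 495, 855 and 461 in progenitor wells. Mki67, the proliferation marker Ki-67, was at 17.5, 22.2 and 0 against 326, 395 and 541 CPM. Of 24 radial glia genes, 13 were tested and all 13 were lower, with a median of -2.67. Ednrb, the endothelin B receptor of radial glia, had no transcript in any young neuron and 145, 216 and 80.1 CPM in progenitor wells, at least 34.0-fold lower in young neurons against a floor of 3 transcripts. Sox9 and Vim fell by 4.18 and 2.89 on the log2 scale. Of 14 genes of intermediate progenitors and cell cycle exit, 9 were tested, the cyclin-dependent kinase inhibitor Cdkn1c rose by 1.56 ± 0.41, and Btg2 and Hes6 fell. The 1 of 9 that rose is near the 9.61% of all tested genes. Of the genes named for this contrast, Sox11, Rtn1, Syt4, Rbfox2, Dlx2 and Hes6 did not pass without plate 1 nor without plate 2, and Hes6 did not without plate 3 either. Chl1 and Dlx1 did not pass without plate 1, and Cdkn1c did not without plate 2. Grin2b, Btg2, Ednrb and Nrxn3 had too few transcripts to be tested without either plate, and Actl6b and L1cam without plate 1.

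**Figure D2:**
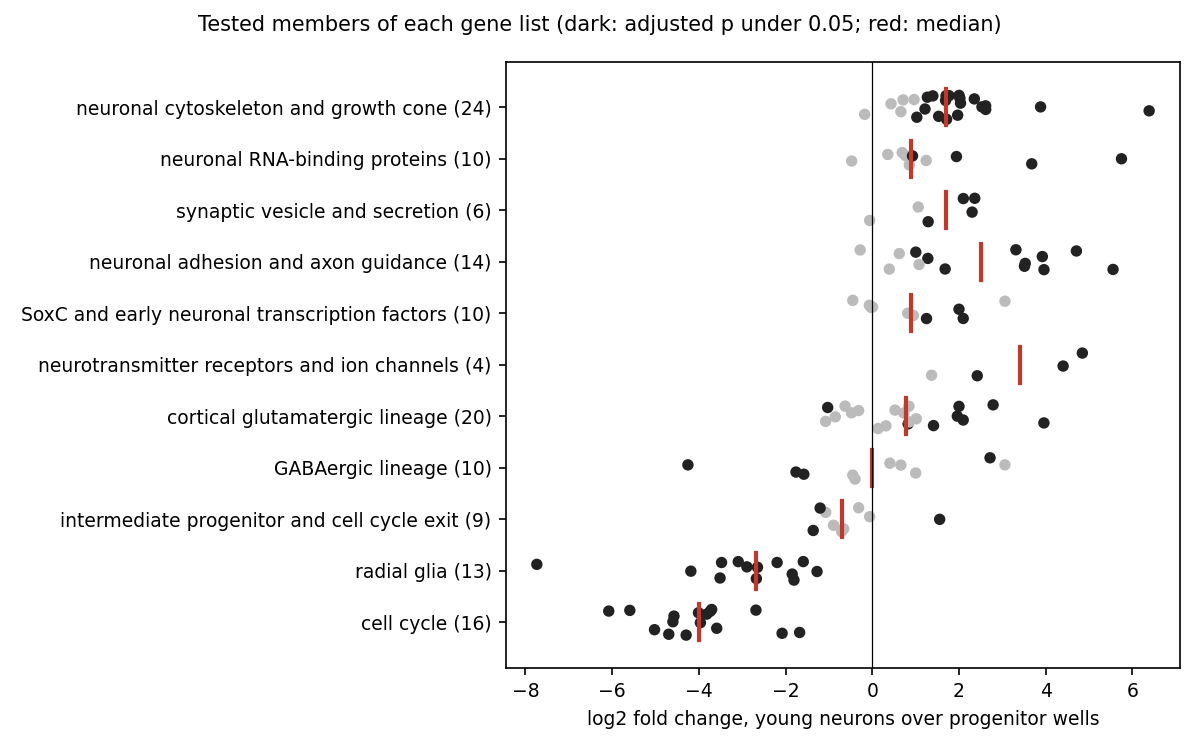
Log2 fold change of young neurons over progenitor wells (x axis) for every tested member of 11 gene lists (rows; number tested in parentheses). Dark points passed an adjusted p of 0.05, grey points did not, and red bars are medians; all 16 cell cycle and 13 radial glia members lie below 0, and 23 of 24 cytoskeletal members lie above it.

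The young neurons were then divided by their transmitter class genes. Of the 82 cells, 29 (35.4%, exact 95% binomial interval 25.1 to 46.7) held a transcript of Gad1 or Gad2, and 51 (62.2%, 50.8 to 72.7) held one of Neurod2, Neurod6 or Tbr1. These intervals cover counting error only. Cells with the first alone, called GABAergic wells, numbered 19, as 6, 12 and 1 on plates 1, 2 and 3. Cells with the second alone, called glutamatergic wells, numbered 41, as 14, 21 and 6. In 10 cells both were found and in 12 neither. Of the 10 cells with both, 7 held a single Gad transcript, 3 held a single transcript of the other set, and none held more than 1 of each. A single transcript also decided the class of 3 GABAergic and 3 glutamatergic wells. Gad2 was found in 8.0% of endothelial and 5.2% of mural gate cells, which should not express it, and Neurod2 in 1.8% and 0.5%, so a single Gad2 transcript was not above this level by itself. With at least 2 transcripts required, no cell held both, and 19 cells (23.2%) counted for Gad and 45 (54.9%) for the other set. These 19 are not the same cells: 3 GABAergic wells dropped out and 3 cells with both came in. With each cell thinned to 1500 transcripts, young neurons were chosen again, as 36, 37 and 9 cells on plates 1, 2 and 3. Of these cells, not all the same as before, 20.7% held a Gad transcript and 51.2% one of the other set.

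**Figure D3:**
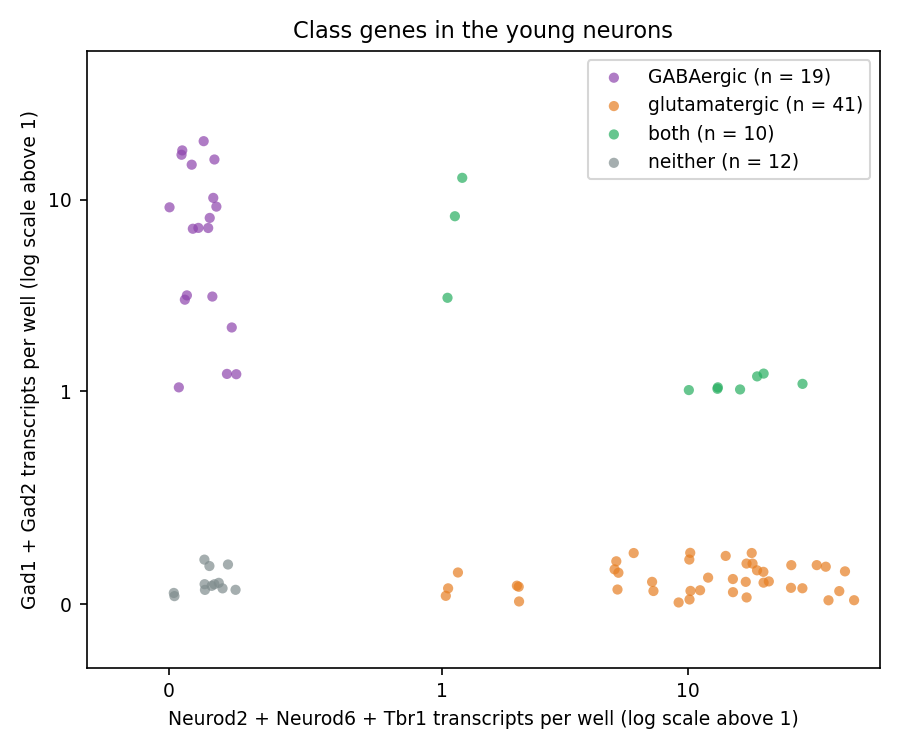
Transcripts of Gad1 and Gad2 (y axis) against those of Neurod2, Neurod6 and Tbr1 (x axis) in each of the 82 young neurons, on axes that are logarithmic above 1, with points shifted by up to 0.25 transcripts. The 10 cells with both (green) lie along a value of 1 on one axis or the other, and 12 cells (grey) lie at 0 on both.

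The class genes themselves are a description, since they made the classes. Gad1 and Gad2, which encode the forms GAD67 and GAD65 of glutamate decarboxylase, were found in 14 and 16 of the 19 GABAergic wells. Gad2 was at 928, 552 and 413 CPM there, and Gad1 at 249, 421 and 413. In the glutamatergic wells Neurod2, a bHLH factor of cortical neurons, was found in 38 of 41 cells, its relative Neurod6 in 33 and the T-box factor Tbr1 in 30. Tbr1 was at 336, 412 and 1154 CPM on plates 1, 2 and 3, highest on plate 3. Among progenitor wells, 3 of 41 held a Gad transcript and 8 of 41 a transcript of the other set.

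The 250 bases before the RefSeq transcript start of these 5 genes are shown because the classes rest on them; each gene has 1 entry in the RefSeq promoters of build GRCm38.p6. GENCODE vM21 starts Gad1 at chr2:70553072, Tbr1 at chr2:61802930 and Gad2 at chr2:22622205, so the Gad1 and Tbr1 windows lie wholly inside the GENCODE genes. The end of the Gad2 window, with its marked bases, lies inside the GENCODE gene too. The windows are chr2:70561879-70562128 on the plus strand for Gad1, chr2:22622077-22622326 on the plus strand for Gad2, chr11:98329646-98329895 on the minus strand for Neurod2, chr6:55681264-55681513 on the minus strand for Neurod6 and chr2:61804203-61804452 on the plus strand for Tbr1, each written 5′ to 3′ toward the gene. Capitals mark CAGATG on either strand, an E-box sequence that NEUROD factors are known to prefer, and TAATTA, a homeodomain core that reads the same on both strands. The letters of these 2 motifs do not overlap.
Gad1: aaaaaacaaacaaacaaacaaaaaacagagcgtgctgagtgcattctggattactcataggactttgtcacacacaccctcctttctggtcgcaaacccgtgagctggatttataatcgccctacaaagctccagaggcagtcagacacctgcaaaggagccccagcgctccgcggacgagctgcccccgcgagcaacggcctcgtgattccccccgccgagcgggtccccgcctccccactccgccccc
Gad2: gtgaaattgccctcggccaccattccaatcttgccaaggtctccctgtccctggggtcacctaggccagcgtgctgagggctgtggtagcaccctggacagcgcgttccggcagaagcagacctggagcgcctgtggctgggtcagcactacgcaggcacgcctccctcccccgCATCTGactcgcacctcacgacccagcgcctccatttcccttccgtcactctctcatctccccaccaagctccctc
Neurod2: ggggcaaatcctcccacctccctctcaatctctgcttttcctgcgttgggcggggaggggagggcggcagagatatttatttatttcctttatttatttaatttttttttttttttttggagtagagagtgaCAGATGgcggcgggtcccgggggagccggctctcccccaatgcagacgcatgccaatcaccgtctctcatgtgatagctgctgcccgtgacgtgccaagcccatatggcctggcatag
Neurod6: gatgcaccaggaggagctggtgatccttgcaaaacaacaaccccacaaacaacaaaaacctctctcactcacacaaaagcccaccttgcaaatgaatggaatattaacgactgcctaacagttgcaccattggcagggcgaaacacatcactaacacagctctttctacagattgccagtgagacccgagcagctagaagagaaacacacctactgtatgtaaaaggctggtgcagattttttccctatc
Tbr1: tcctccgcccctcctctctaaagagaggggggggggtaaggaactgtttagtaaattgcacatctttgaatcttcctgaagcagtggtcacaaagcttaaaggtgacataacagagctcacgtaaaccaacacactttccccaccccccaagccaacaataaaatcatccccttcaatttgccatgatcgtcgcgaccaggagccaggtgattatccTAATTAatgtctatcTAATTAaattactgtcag
An E-box of these letters occurred in Gad2 and Neurod2, and TAATTA occurred 2 times in Tbr1. Of 32851 promoter windows of the same length, 14.4% held the E-box and 4.84% held TAATTA. The matches are descriptions of sequence and no binding was measured.

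GABAergic and glutamatergic wells differed in 34 further genes of 1114 tested. Since these classes, too, were made from transcripts of the same cells, the counts describe the split and support nothing further. In GABAergic wells 12 genes (1.08%) were higher and 22 (1.97%) were lower at an adjusted p under 0.05 (edgeR), against a median log2 fold change of -0.01 over all tested genes. The GABAergic sum of plate 3 is a single cell of 9698 transcripts. Without plate 1 the counts were 8 higher and 10 lower, without plate 2 they were 3 and 5, and without plate 3 they were 21 and 26. A low gene entered this test mostly through the class in which it was high. The median depth was 7717 transcripts in GABAergic and 7680 in glutamatergic wells. The summed mural markers ran from 0 to 158 CPM in GABAergic and from 42.7 to 83.9 in glutamatergic wells, and the microglia markers from 10.02 to 103 and from 0 to 128, so that both lists overlapped.

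The nuclear factor I genes differed between the classes. Nfib, which encodes a transcription factor of forebrain development, was at 2701, 2615 and 3204 CPM in the glutamatergic wells of plates 1, 2 and 3 and at 204, 140 and 0 in the GABAergic wells. The log2 fold change, GABAergic over glutamatergic, was -4.19 ± 0.39 (adjusted p = 1.02e-06 by edgeR). Its relatives followed: Nfia was at 646, 830 and 1111 against 0, 40.1 and 103 CPM, and Nfix at 512, 599 and 513 against 0, 10.02 and 103. For all 3 genes every glutamatergic sum exceeded every GABAergic sum, and Nfib was found in 36 of 41 glutamatergic and 6 of 19 GABAergic wells. All 3 genes also passed without each plate in turn.

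Other genes of cortical excitatory neurons were lower in GABAergic wells with them. Of 34 genes listed for this lineage, 15 were tested, with a median log2 fold change of -2.43. Of these 15, 9 were lower, Nfia, Nfib and Nfix among them, and none was higher. Of all tested genes, 1.97% were lower. Bhlhe22, a bHLH repressor, was at 352, 387 and 171 CPM in glutamatergic wells and at 0, 10.02 and 0 in GABAergic wells (log2 fold change -5.34 ± 0.73, adjusted p = 7.81e-05). Fezf2, the selector of subcerebral projection neurons, was at 243, 250 and 684 against 0, 20.1 and 0 CPM, and the zinc finger repressor Zbtb18 at 487, 599 and 598 against 45.2, 80.2 and 0. Sox5 and Id2 also fell. Bcl11b, which both cortical and striatal neurons use, was at 671, 880 and 1068 CPM in glutamatergic and at 1085, 622 and 0 in GABAergic wells, and it did not pass (log2 fold change -0.23 ± 0.42). Outside the list, Dpy19l1, a C-mannosyltransferase gene, had no transcript in the 19 GABAergic wells and 176, 318 and 385 CPM in glutamatergic wells, at least 13.7-fold lower against a floor of 3 transcripts. Tcf4, Cntn2, Cnr1 and Ppp2r2b were also lower in GABAergic wells. Of these, Cnr1 encodes the cannabinoid receptor CB1. Sox5, Cntn2 and Cnr1 did not pass without plate 1. Without plate 2, Zbtb18 passed, Sox5, Cntn2, Tcf4 and Ppp2r2b did not, and Bhlhe22, Fezf2, Id2, Dpy19l1 and Cnr1 had too few transcripts to be tested.

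Nrxn3, a presynaptic neurexin, had the largest rise in GABAergic wells among the tested genes that the rule did not read. It was at 633, 411 and 619 CPM there and at 8.39, 6.24 and 0 in glutamatergic wells, a log2 fold change of 6.04 ± 0.57 (adjusted p = 1.02e-06 by edgeR), and was found in 15 of 19 against 2 of 41 cells. The RNA-binding protein gene Celf4 was at 995, 792 and 619 against 235, 268 and 214 CPM, and the imprinted noncoding RNA Meg3 at 1221, 2135 and 1032 against 738, 287 and 385. Neither gene's classes overlapped over the plates. Dclk2, Efnb3, Scn3a, Nr2f2, Csrnp3 and Ina rose with log2 fold changes from 1.21 to 2.37. Tcf7l2, a factor of thalamic and midbrain neurons, passed at 2.69 ± 0.72, but its level was 1673, 291 and 5469 CPM in GABAergic wells, so that the single cell of plate 3 was the highest, and 260, 512 and 0 in glutamatergic wells. The classes of Tcf7l2 overlapped, and it did not pass without plate 1 (adjusted p = 0.357, edgeR) or without plate 3 (0.459). With plate as a block, Tcf7l2 and Ina did not pass, at adjusted p = 0.323 and 0.0604 (edgeR). Nrxn3 passed without each plate in turn. Without plate 1, Celf4, Dclk2, Efnb3, Scn3a, Nr2f2, Csrnp3 and Ina did not pass. Without plate 2, Meg3 (adjusted p = 0.83, edgeR), Celf4, Dclk2, Scn3a and Ina did not pass, and Efnb3 and Csrnp3 were not tested. Without plate 3, Csrnp3, Scn3a and Ina did not pass.

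**Figure D4:**
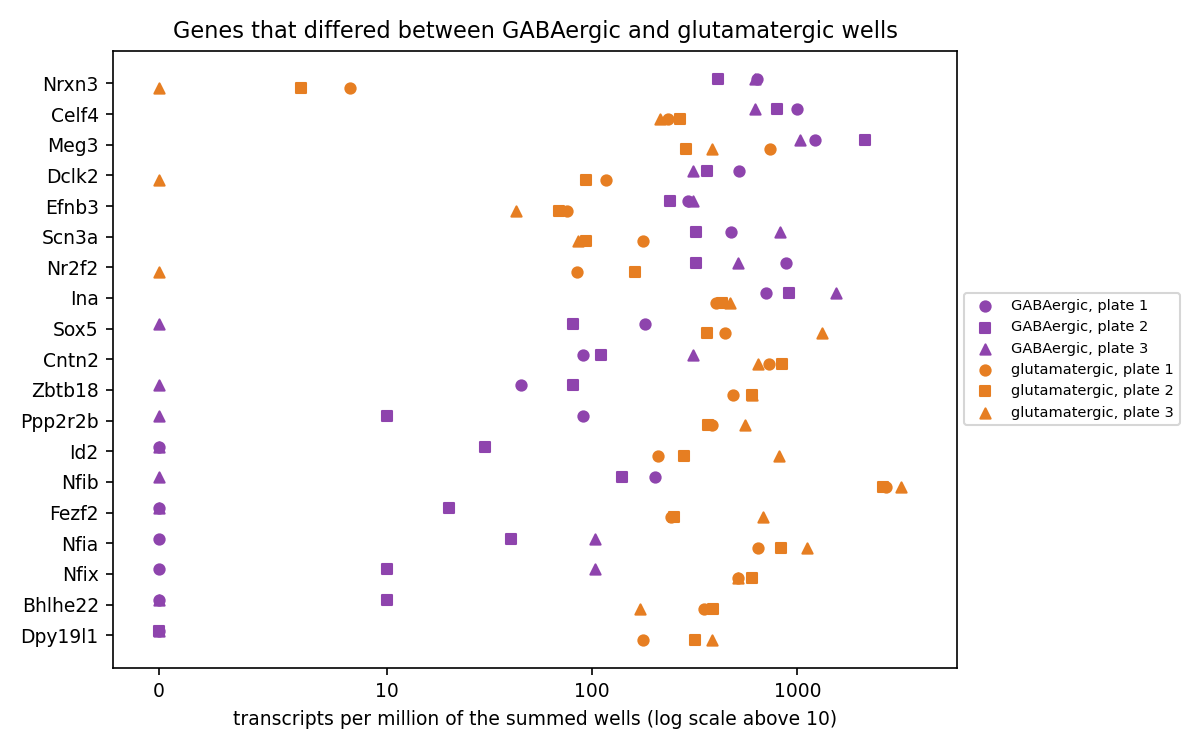
Levels of 19 of the genes that differed, in CPM (x axis, logarithmic above 10), in the GABAergic (purple) and glutamatergic (orange) sums of plates 1, 2 and 3 (circle, square, triangle). The 8 genes at the top are higher in GABAergic wells and the 11 below are lower, and no gene's colours overlap.

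Factors that define GABAergic neurons were mostly too sparse for the test, as only 3 of 45 listed genes were tested and none passed, so they are given as cells. Slc32a1, the vesicular GABA transporter, was found in 10 of 19 GABAergic and 0 of 41 glutamatergic wells, and a count of 0 there allows a share of up to 7.32%. At 20 transcripts over the class it was at least 13.1-fold higher. Dlx1 was found in 11 of 19 against 5 of 41 cells, Dlx2 in 9 against 0 and Isl1, a factor of striatal projection neurons, in 7 against 0. Conversely, the vesicular glutamate transporter gene Slc17a6 was found in 19 of 41 glutamatergic and 1 of 19 GABAergic wells and Neurod1, a bHLH factor of new excitatory neurons, in 25 against 2. In the endothelial gate Slc32a1 was found in none of 225 cells and Dlx1 in 1.8%.

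The GABAergic wells were next described by families of regional factors, which were grouped after their values were seen. A transcript of the DLX family (Dlx1, Dlx2, Dlx5, Dlx6 or Dlx6os1) was found in 14 of the 19 cells. Tal1, Tal2, Gata2 or Gata3, which specify GABAergic neurons of midbrain and brainstem, were found in 5 cells, of which 3 lacked a DLX transcript and all 5 held Otx2, Lhx1, Lhx5 or Sox14. Only 2 cells held neither family, and 2 held both. No glutamatergic well held a TAL or GATA transcript, and 7 of 41 held one of the DLX family. Gata3 was at 67.8, 140 and 1961 CPM on plates 1, 2 and 3, so the single GABAergic cell of plate 3 carried the highest level and held no Dlx1 or Dlx2. Lhx6, Lhx8 or Nkx2-1, factors of the medial ganglionic eminence, were found in 8 of the 19 cells. They were also found in 5 of 41 glutamatergic and 9 of 41 progenitor wells.

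The glutamatergic wells held factors of several stages of cortical neurons, which were also found in other classes. Bcl11b was found in 32 of the 41 cells, against 13 of 19 GABAergic and 18 of 41 progenitor wells. Fezf2 was found in 22, against 2 and 17. Eomes or Neurog2, which mark intermediate progenitors, were found in 12 of the 41 cells, against 2 and 15. Reln, the secreted signal of Cajal-Retzius cells, was found in 7 glutamatergic, 4 of the 19 GABAergic and 2 of 41 progenitor wells.

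The 12 cells with neither class gene had a median of 6890 transcripts, the lowest of the 4 subclasses, and a median neuron sum of 40.0. They included cells of 2143 and 2179 transcripts with neuron sums of 2.0 and 1.0. On thinning to 1500 transcripts, young neurons were chosen again, and 26 of the 82 cells then chosen held neither. Slc17a6 was found in 4 of the 12 cells, all on plate 1, and Slc32a1 in 1. A transcript of the listed diencephalon, midbrain and hindbrain factors was found in 10 of the 12, against 19 of 41 glutamatergic, 16 of 19 GABAergic and 33 of 41 progenitor wells. Most of these cells carried such a factor, as did most GABAergic and progenitor wells.

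The contrast was repeated on the plates of the Mof knockout, which the rule did not use and which have no gate. A cell there counted as a young neuron when its neuron sum was at least 5 transcripts and exceeded both the progenitor sum and the summed mural, endothelial and microglial markers. Of 882 cells over 1500 transcripts, 88 qualified, as 2, 59 and 27 on plates 4, 5 and 6. Gad1, Gad2, Neurod2, Neurod6 and Tbr1 again set the classes, giving 19 GABAergic and 47 glutamatergic wells. A repeat therefore describes the same split in other cells and supports nothing further. Mof is the histone acetyltransferase gene Kat8, of which 9 of these 88 cells and 16 of the 82 wild-type young neurons held a transcript, or 15.5 and 24.9 CPM. Its 3′ tag may lie outside the deleted part, which the labels do not give, so this level does not check the label.

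On these plates 24 of 1743 tested genes (1.38%) were higher and 35 (2.01%) were lower in GABAergic wells at an adjusted p under 0.05 (edgeR). The only GABAergic cell of plate 4 has no glutamatergic cell beside it, and leaving out plate 5 or plate 6 gave 0 higher and 0 lower genes, with a single glutamatergic sum left that was assumed to vary like the others. At an unadjusted p under 0.05, 39 genes were left without plate 5 and 93 without plate 6. Of the 34 genes called on the wild-type plates, 33 were tested and 16 passed in the same direction. In all, 29 had the same direction (87.9%, against 59.4% of all 1053 genes tested in both). Among genes higher in wild-type GABAergic wells, 9 of 11 kept the direction and only 2 passed, Meg3 and Nrxn3. Among the lower genes, 20 of 22 kept it and 14 passed. The 4 with the opposite sign were Celf4, Nr2f2, Cnr1 and Rbfox1, at log2 fold changes of -0.14, -0.01, 0.03 and 0.31, and none of these passed. Nfib was at 2807 and 4281 CPM in the glutamatergic wells of plates 5 and 6 and at 0, 146 and 95.4 in the GABAergic wells of plates 4, 5 and 6, and its adjusted p was 1.90e-05. Nrxn3 repeated at a log2 fold change of 6.04 ± 0.93, and Bhlhe22 at -4.86 ± 0.93. Nfix was at 690 and 1126 CPM in glutamatergic wells and had no transcript in any GABAergic well. Bcl11b, which did not pass on the wild-type plates, was lower in GABAergic wells here, at -2.05 ± 0.54 (adjusted p = 0.0401 by edgeR).

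**Figure D5:**
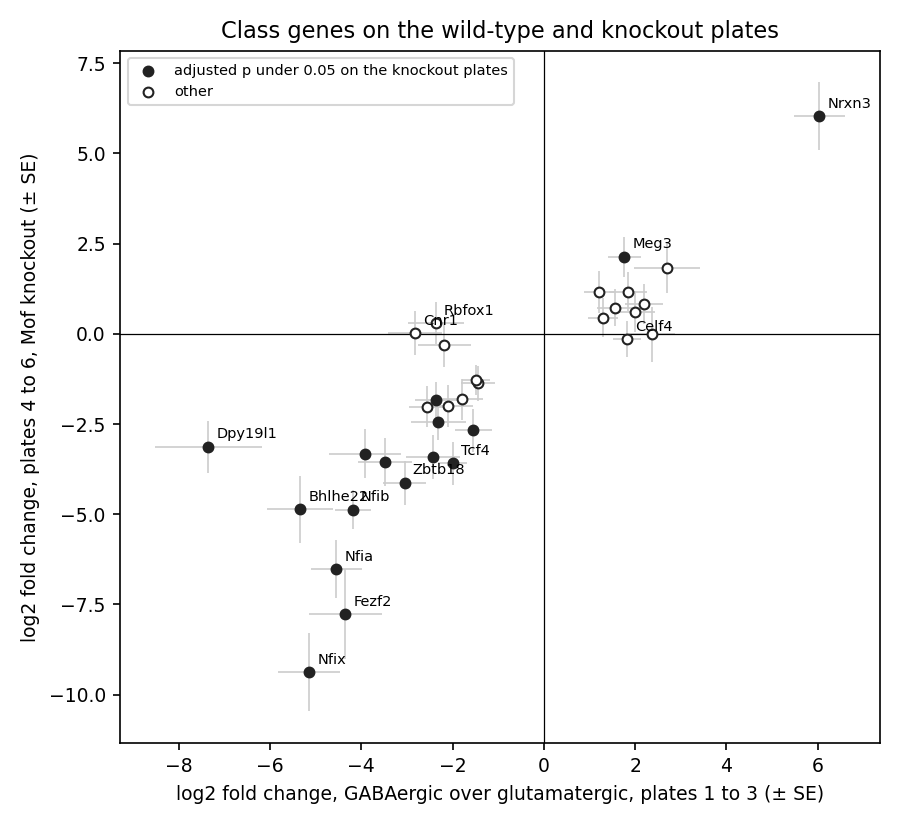
Log2 fold change, GABAergic over glutamatergic wells, on the wild-type plates (x axis) and on the Mof knockout plates (y axis) for the 33 genes called on the wild-type plates and tested on both; bars are standard errors. Filled points (16) passed an adjusted p of 0.05 on the knockout plates, and 29 of 33 lie in the quadrants of equal sign.

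The regional factors of the GABAergic wells were found on the plates of both genotypes, in different numbers of cells. Dlx1 was found in 1 of 19 knockout and 11 of 19 wild-type GABAergic wells, while Gata3 was found in 10 and 4, Otx2 in 13 and 4, Tal1 in 11 and 3 and Lhx1 in 12 and 6. Slc32a1 was found in 10 of 19 cells of both genotypes. This difference between genotypes was not tested, and genotype, plate and the missing gate cannot be told apart. In the glutamatergic wells, Slc17a6 was found in 27 of 47 knockout and 19 of 41 wild-type cells and Neurod1 in 37 and 25.

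The bulk neural libraries, which hold young neurons and progenitors together, also carried these genes. The values are normalized counts deposited by the authors, and the neural libraries were made with another kit than the rest, so kit and population cannot be told apart. In such mixed samples, fewer cells of a type and less RNA per cell cannot be told apart either. Dcx was at 35360, 31489 and 35892 in the neural libraries of the 3 brains, against 247 to 1211 over the 9 other libraries. Gad1 was at 4100, 4375 and 4232 against 0 to 493, and Neurod2 at 6881, 6503 and 7598 against 35.5 to 428. Slc32a1, found in only 13 of the 82 young neurons, was at 864, 870 and 907 against 0 to 1.51. For each of these 4 genes every neural library exceeded every other library. Tal1 was at 1067, 1063 and 1088 in neural libraries but reached 2199 in a microglial library, so its ranges overlapped.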

How the data were processed

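Single-cell files hold expected counts: the authors deposited transcripts per gene and well, corrected for collisions among 4096 possible identifiers of 6 bases, so values are not whole. Bulk files hold a signal, counts that the authors deposited after normalization. The submitters' processing notes name BWA 0.6.2-r126, STAR, featureCounts, DESeq2 and mm10; their roles are not given in the sources used here. The authors' well index, a column of categories deposited with the series (unit other), gave plate, library and gate.

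Wells over 1500 transcripts were kept. No doublets were removed. Expected counts were summed per class and plate and rounded. They were tested with edgeR 4.0.16 in R 4.3.3 (filterByExpr, TMM, quasi-likelihood test, two-sided, Benjamini-Hochberg over all genes), without a block. DESeq2 1.42.0 was an alternative. The genes that made a split were left out of the counts for that split. Gad1, Gad2, Neurod2, Neurod6 and Tbr1 were therefore counted among the 229 genes higher in young neurons. The sums held 41389 to 316042 transcripts for young neurons, 49931 to 165586 for progenitor wells, 9691 to 99751 for GABAergic and 23406 to 160231 for glutamatergic wells. Plates pair the classes, since both came from the same library of a plate; deviations from class means correlated at 0.10 to 0.15 for young neurons and progenitor wells and at -0.01 to 0.00 for the GABAergic and glutamatergic wells. On simulated counts for young neurons against progenitor wells (2543 genes), 66 of 100 genes changed 4-fold and 79 of 100 changed 8-fold were recovered. For GABAergic against glutamatergic wells (1364 genes) these were 76 and 88. Unchanged genes that were called numbered 5 in the first simulation and 3 in the second. Every simulated gene had the same spread, which was not estimated from these data, and only genes with enough transcripts were changed. The recovered shares therefore do not give the power of the tests here.

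Named genes were the 15 rule genes, the 12 higher and 12 lower with the largest change whose sums did not overlap, passing list members (5 per list and direction) and defining list members. The members and gene lists were chosen with earlier results of these data known. Gene positions came from GENCODE vM21. The title and the file of plate 3's neural library give different library numbers, and the well index gives that of the file. Plates 1 and 2 share 48 well barcodes by design, so wells were kept apart by plate. Some genes are not reported here.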

Additional observations from a re-analysis of the deposited data

How the results depend on the processing

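Of the single wild-type genes chosen by the naming rule, none reversed its direction where it was refitted. Not every gene could be refitted under every alternative, and fewest after thinning. With DESeq2 the counts of genes fell to 140 higher and 112 lower in young neurons, 7 higher in GABAergic wells, and 15 higher and 21 lower in GABAergic wells of the knockout plates. Without a filter on low counts they were 505 and 384 in young neurons, 35 and 34 in GABAergic wells, and 42 higher on the knockout plates. With each well thinned to 1500 transcripts they were 43 and 20 of 329 tested genes in young neurons, and 2 and 3 of 72 in GABAergic wells; fewer genes were tested. Leaving out a plate gave 45 to 541 higher and 39 to 501 lower genes in young neurons, and 3 to 21 higher and 5 to 26 lower in GABAergic wells. On the knockout plates it gave 0 to 34 higher and 0 to 36 lower. The cause of the other changes was not tested. The replicate block (plate) gave 251 and 204, 11 and 19, and 28 and 33 genes, within 1.5 times of the values without it, and the pairing ended the calls of Celf2, Gm19817, Ina and Tcf7l2 between GABAergic and glutamatergic wells. The share of young neurons with Gad1 or Gad2 moved to 20.7% on thinning, where the young neurons were chosen again. It moved to 23.2% with at least 2 transcripts. Sums per library equalled sums per plate. The alternatives on the knockout plates were chosen after seeing the data. Most genes of the transmitter receptor, synaptic and GABAergic lists held too few transcripts to be tested.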
